A study of Mus musculus with 2 samples.

Results

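The collagen genes were taken as every gene of the deposited matrices whose whole symbol reads Col, digits, a, digits. The rule found 44 of the 32285 genes listed, and all 44 were found in GENCODE M21. The rule itself uses no measured value. Over the kept cells of both libraries, 32 members had at least 100 UMIs (unique molecular identifiers, each standing for 1 captured transcript) and are described with values. The other 12 had fewer and are accounted for at the end.

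Collagens are extracellular matrix proteins in which chains wind around each other into a triple helix. Fibrillar collagens (types I, III, V, XI, XXIV and XXVII) assemble into the fibres that give connective tissue its strength, and type I and III dominate the scar-like stroma of pancreatic tumours. Network collagens (type IV) form the sheet of basement membranes under epithelium and around vessels and pericytes. Type VI makes beaded filaments, type VII anchors epithelium to the stroma, FACIT collagens (XII, XIV, XVI and others) decorate fibrils, and the multiplexins XV and XVIII sit in basement membrane zones. Fibroblasts are the main source of fibrillar collagen in most tissues.

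The data were droplet single-cell RNA-seq counts from orthotopic mouse pancreatic tumours, grown from implanted KPC pancreatic cancer cells and taken at day 21. The knockout mice were Csf1r-Cre;Porcnfl/fl, in which Cre is driven by the Csf1r promoter of the myeloid lineage and cuts Porcn, a gene needed for secretion of Wnt proteins. The controls were Porcnfl/fl littermates, so both groups carried the floxed allele and only the knockout carried Cre. The implanted tumour cells do not themselves carry the host's alleles. Tumours of 5 mice were pooled per genotype into 1 library each. Tissue of both groups was digested with collagenase at 1.5 mg/ml and DNase at 0.1 mg/ml for 30 min at 37 °C. With 1 library a group there is no test between genotypes. Every difference below compares 2 libraries, and the 95% intervals cover counting error only.

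The control matrix held 13766 barcodes and the knockout matrix 12251, of which 11516 and 10467 cells were kept, with median depths of 12167.5 and 10109 UMIs. The libraries shared 46 barcodes, 38 of them among kept cells. Porcn was read at 12 UMIs in 550 control monocyte/macrophage-like cells (3.96 CPM, the gene's UMIs per 1000000 UMIs of the class) and at 4 UMIs in 655 knockout cells (1.13 CPM). The labels do not say which exons are floxed, and 3′ tags may lie outside the deleted part, so this does not check the deletion. The labels call the samples tumour-infiltrating cells, but 79.4% of kept control cells and 55.2% of kept knockout cells fell in the epithelial/tumour-like class. That class had Krt8 at 2136 and 2070 CPM and Y-linked transcripts at 1.57 and 3.66 CPM, against 147 and 194 CPM in fibroblast-like cells. Epcam was at 7.05 and 20 CPM in it, but 82.5% and 98.2% of its UMIs lay in 51 and 62 cells of sub-clusters with host levels of Y-linked transcripts, and the other cells had 1.24 and 0.371 CPM. Lymphoid cells (T, NK and B), which should lack collagen transcripts, numbered 244 and 2340 and set the level of free RNA. A gene was called above the lymphoid level where its lower bound of UMIs per cell was at least 3 times the lymphoid upper bound in that library.

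Stretches before the RefSeq start of 4 members are shown because they belong to the members the results turn on. Col3a1 and Col1a2 were the most abundant members with an entry in the promoter table. Col24a1 and Col28a1 were the members furthest below and above control in fibroblast-like cells. The sequences are RefSeq's on GRCm38.p6, 5′ to 3′ on the gene's strand, from up to 250 bases before the RefSeq start, cut to the bases outside every annotated exon. Capitals mark matches to TATAA or GGGCGG on either strand. CCAAT was also searched and has no match in these stretches.
Col3a1, chr1:45311288-45311537, + strand: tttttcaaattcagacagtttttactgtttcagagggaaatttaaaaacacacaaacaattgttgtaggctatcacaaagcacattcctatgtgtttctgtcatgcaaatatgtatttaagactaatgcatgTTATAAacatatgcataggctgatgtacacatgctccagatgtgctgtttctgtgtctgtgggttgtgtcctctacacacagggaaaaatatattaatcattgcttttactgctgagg
Col1a2, chr6:4505370-4505492, + strand: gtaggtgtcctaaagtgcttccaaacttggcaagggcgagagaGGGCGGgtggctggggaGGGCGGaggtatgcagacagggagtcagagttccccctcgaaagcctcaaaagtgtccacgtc
Col24a1, chr3:145292222-145292471, + strand: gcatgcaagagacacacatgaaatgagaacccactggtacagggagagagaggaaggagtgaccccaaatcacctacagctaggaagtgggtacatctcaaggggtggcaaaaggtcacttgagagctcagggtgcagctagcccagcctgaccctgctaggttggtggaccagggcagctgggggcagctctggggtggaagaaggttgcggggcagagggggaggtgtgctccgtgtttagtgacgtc
Col28a1, chr6:8192618-8192867, - strand: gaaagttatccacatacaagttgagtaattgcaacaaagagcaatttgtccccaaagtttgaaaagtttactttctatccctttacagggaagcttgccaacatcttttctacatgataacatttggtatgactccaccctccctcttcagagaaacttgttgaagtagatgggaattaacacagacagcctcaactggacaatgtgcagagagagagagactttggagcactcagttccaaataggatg
In Col3a1, TATAA on the gene's strand and its reverse match TTATA overlap, beginning 117 and 118 bases before the start. In Col1a2, GGGCGG began 205 and 188 bases before the RefSeq start. GENCODE M21 starts this gene further upstream, at 4504814, so the Col1a2 stretch lies inside the annotated gene, outside its exons. The Col24a1 and Col28a1 stretches held none of the 3 motifs. Of 44 members, 35 were matched to RefSeq promoters, in 38 windows. TATAA was in 7 of these against 22.8% of all 32851 windows of that length, CCAAT in 13 against 33.8%, and GGGCGG in 22 against 32.7%. These are letter matches, not binding sites.

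Collagen transcripts were concentrated in stromal cells. Collagen genes took 0.322% of UMIs in kept control cells and 0.227% in kept knockout cells, or 544001 and 293439 UMIs. Col3a1, Col1a2 and Col1a1, the chains of type III and type I collagen, together made up 59.0% and 55.3% of them. The fibroblast-like class made up 3.54% of the control library and 6.84% of the knockout library but held 45.1% and 70.0% of their collagen UMIs. The epithelial/tumour-like class held 24.8% in each library. In control, 20.7% came from a stromal population named here by its leading genes Saa3 and Lum (191 cells), of which the knockout library had 16 cells with 1.59%. Adding these cells to the fibroblast-like class gave shares of 65.8% and 71.6%. Mesothelial-like cells held 1.35% and 0.925%, pericyte/smooth muscle-like cells 0.832% and 0.175%, and endothelial-like cells 0.331% and 0.195%. Collagen genes were left out of the clustering, so their levels did not define these classes. The classes were named from fixed marker lists, so high sums of a list in its own class follow from the naming. The 12 fibroblast genes summed to 19114 and 20693 CPM in fibroblast-like cells against 517 and 418 in the tumour class. Other lists separated less: the 12 epithelial/tumour genes summed to 6532 and 6555 CPM in the tumour class and to 5553 and 2594 in neutrophil-like cells.

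**Figure D1:**
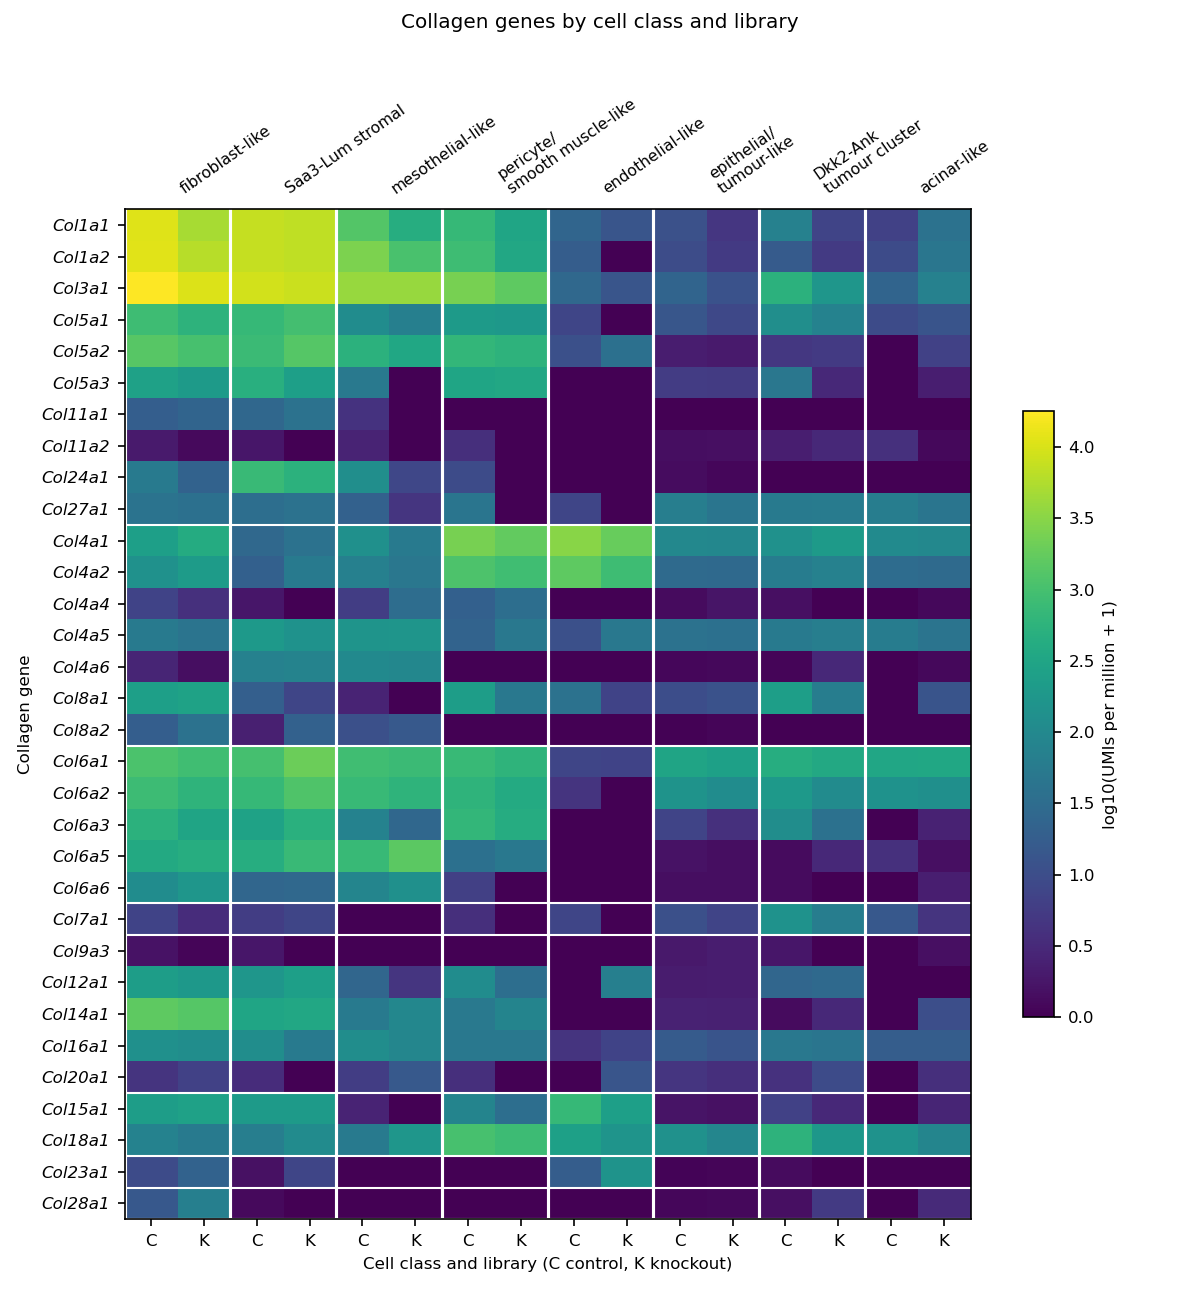
Level of each of the 32 described collagen genes (rows, grouped by family and separated by white lines) in 8 cell classes, control (C) and knockout (K) library side by side, as log10(CPM + 1). Fibrillar genes are brightest in the fibroblast-like and Saa3-Lum columns, Col4a1 and Col4a2 in the pericyte and endothelial columns, and Col6a1 and Col6a2 are above background in every class but the endothelial.

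Each class had its own collagen set. Fibroblast-like cells had Col3a1 first (17832 CPM in control, 10752 in knockout), then Col1a2 and Col1a1, then Col14a1 (1564 and 1353 CPM) and Col5a2 (1382 and 1049 CPM). Levels of different genes are set side by side without a length correction, because 3′ tags are counted once per transcript whatever its length. Other differences in capture between genes were not checked. Endothelial-like cells had Col4a1 (3144 and 1835 CPM) and Col4a2 (1582 and 841 CPM) first, then Col15a1 (703 and 250 CPM). Pericyte/smooth muscle-like cells had Col4a1 (2433 and 1709 CPM) beside Col3a1 (2378 and 1543 CPM) and Col18a1 (1026 and 830 CPM). Epithelial/tumour-like cells had Col6a1 (303 and 260 CPM), Col6a2 (150 and 115 CPM), Col18a1 (142 and 88.0 CPM) and Col4a1 (94.9 and 92.6 CPM). Thus fibrillar genes headed the fibroblast list and no fibrillar gene was among the first 4 of the tumour cells.

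Fibroblast-like cells of the knockout library had lower fibrillar collagen levels and higher levels of several network and minor collagens. The summed level was 48987 CPM over 408 control cells and 29200 CPM over 716 knockout cells, a ratio of 0.596 (0.593 to 0.60). The spread between cells was wide: the 10th, 50th and 90th percentiles were 11719, 34572 and 92818 CPM in control and 10951, 23270 and 51625 CPM in knockout. The lower ends were alike and the upper ends differed most. Of 28 members with at least 50 UMIs in the class, 7 were lower and 6 higher by over 1.5-fold, with 15 within. Over all 11019 genes read in the class, 16% passed that fold, 5.34% lower and 10.7% higher. The members' median log2 ratio was -0.27 beside 0.06 for all genes. The ratio depended on which fibroblasts were counted. It was 0.851 with sub-clusters weighted alike in both libraries and 0.762 without the sub-cluster led by Prg4 and Apod, and 5 and 8 members then passed the fold in place of 13. Krt8, an epithelial keratin, was at 144 and 55.2 CPM in the class and summed tumour genes at 109 and 76.0 CPM; their part in the ratio was not tested.

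Among fibrillar genes, those of type I collagen differed most of the abundant ones. Col1a1 (ENSMUSG00000001506, chr11:94936224-94953042) had 55219 UMIs in control fibroblast-like cells and 35210 in knockout, 11027 and 5008 CPM, a ratio of 0.454 (0.448 to 0.460). Col1a2 (ENSMUSG00000029661, chr6:4504814-4541544), its partner chain, was at 11539 and 6116 CPM, a ratio of 0.530 (0.523 to 0.537). Col3a1 (ENSMUSG00000026043, chr1:45311538-45349706) was at 17832 and 10752 CPM, a ratio of 0.603 (0.597 to 0.609). With sub-clusters weighted alike the log2 ratios of these genes went from -1.14 to -0.47, from -0.92 to -0.36 and from -0.73 to -0.11, all inside the 1.5-fold limit. Positions are GENCODE M21's on GRCm38.

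Type V collagen, which sets fibril diameter, was lower by less. Col5a1 was at 854 and 555 CPM (ratio 0.649), Col5a2 at 1382 and 1049 (0.759) and Col5a3 at 273 and 203 (0.743), so only Col5a1 passed the fold. Col27a1 was nearly level at 40.3 and 36.0 CPM, and Col11a1 was at 17.4 and 22.8 CPM, a ratio of 1.31 (1.0 to 1.72). Col24a1, a minor fibrillar chain, was the lowest member by ratio. It had 270 UMIs in control and 146 in knockout, 53.9 and 20.8 CPM, a ratio of 0.385 (0.313 to 0.473). It was lower by over 1.5-fold in all 15 alternative settings run for this class, and 1 knockout cell held 21.2% of its knockout UMIs.

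**Figure D2:**
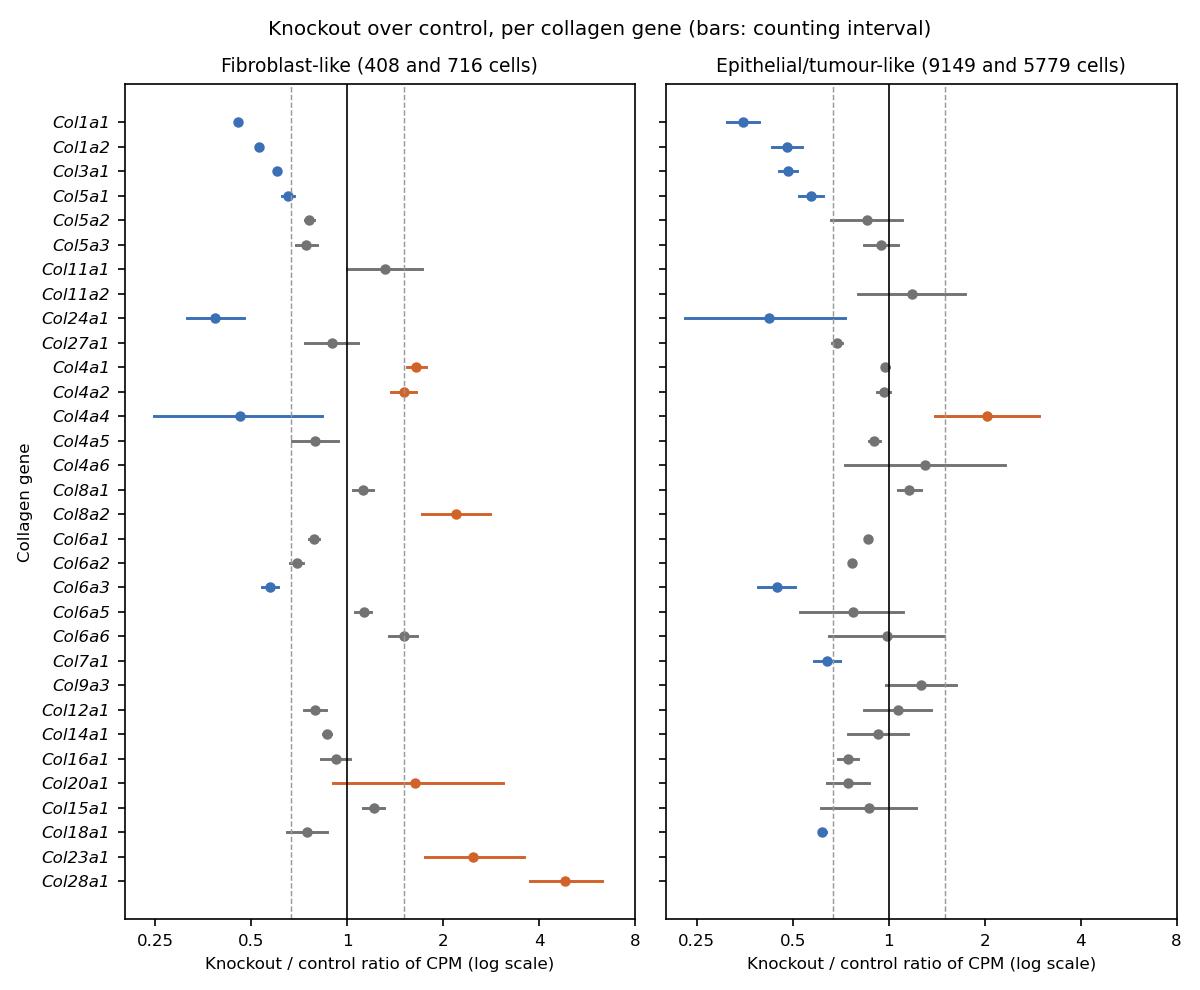
Ratio of knockout to control CPM (log scale) for each collagen gene with at least 50 UMIs in the fibroblast-like (left) and epithelial/tumour-like class (right), with its 95% counting interval. Dashed lines mark 1.5-fold. Genes past it are blue where lower and orange where higher. Col28a1 lies furthest right among fibroblast-like cells and Col1a1 furthest left among tumour cells.

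Some basement membrane and short-chain network collagens, Col4a1, Col4a2 and Col8a2, went the other way in these fibroblast-like cells. Col4a1 (ENSMUSG00000031502) was at 250 and 412 CPM, a ratio of 1.64 (1.54 to 1.76), and Col4a2 (ENSMUSG00000031503) at 142 and 213 CPM, a ratio of 1.50 (1.37 to 1.64). The genes lie head to head on chromosome 8 and their first exons overlap by 22 bases. Both remained above control in all 15 alternatives, but Col4a1 passed the fold in 11 of them and Col4a2 in 4. Col8a1 was level (251 and 281 CPM), while its partner Col8a2 had 88 and 270 UMIs, 17.6 and 38.4 CPM, a ratio of 2.19 (1.71 to 2.81). Col4a5 was lower, at 53.9 and 42.7 CPM, and Col4a4 was lower past the fold (31 and 20 UMIs, log2 ratio -1.10). In the 9 fibroblast sub-clusters with at least 10 cells in each library, Col4a1 was higher in 5 and lower in 4. Col4a2 was higher in 6 and lower in 3. Weighting sub-clusters alike took Col4a1 to a log2 ratio of 0.26 and Col8a2 to 0.46.

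Type VI collagen differed by chain. The classical chains were lower: Col6a1 at 1110 and 872 CPM (ratio 0.786), Col6a2 at 828 and 573 (0.693) and Col6a3 at 538 and 307 (0.571, the only one past the fold). The alternative chains were not: Col6a5 was at 388 and 438 CPM (1.13) and Col6a6 at 115 and 171 CPM (1.50, just inside the fold). Across the 9 fibroblast sub-clusters with at least 10 cells in each library, Col6a6 was higher in 8 and lower in 1. Col6a3 was lower in 5 and higher in 4.

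Fibril-associated and multiplexin genes moved little as a group. FACIT genes summed to 1931 and 1663 CPM and multiplexins to 302 and 330 CPM. Col14a1, which binds fibrils in mature connective tissue, was at 1564 and 1353 CPM (0.865). Col12a1 was at 229 and 181 CPM (0.790), Col16a1 at 133 and 122 CPM, Col15a1 at 228 and 274 CPM (1.21) and Col18a1 at 74.5 and 55.6 CPM (0.747). The small members differed most. Col28a1 (ENSMUSG00000068794, chr6:7997808-8192617), a collagen with von Willebrand factor A domains, had 69 and 466 UMIs, 13.8 and 66.3 CPM, a ratio of 4.81 (3.73 to 6.29). It passed the fold in all 15 alternatives. Col23a1, a transmembrane collagen, was at 8.39 and 20.8 CPM, a ratio of 2.48 (1.75 to 3.58), and passed in 14. Col20a1 rested on 17 and 39 UMIs (1.63, 0.903 to 3.08), an interval that includes no difference.

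Sub-clusters of the fibroblast-like class differed in collagen level by more than the libraries did, and the libraries drew on different sub-clusters. Fibroblasts led by Prg4 and Apod had the highest sum, 73249 CPM over 110 control cells, and held 20.6% of the control library's collagen UMIs. The knockout library had 1 such cell. Fibroblasts led by Igfbp3 and Kif26b were at 56179 CPM over 25 control cells and 38714 CPM over 145 knockout cells, and held 22.7% of the knockout library's collagen UMIs. Fibroblasts led by Nkain3 and C77080 were at 52391 CPM (65 cells) and 40438 CPM (82 cells). The lowest sum belonged to fibroblasts led by Agt and Fgf10, 10087 and 12760 CPM over 16 and 29 cells. Over the 9 comparable sub-clusters the sum was lower in the knockout library in 5 and higher in 4, with ratios from 0.403 to 1.41 and a median of 0.924.

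**Figure D3:**
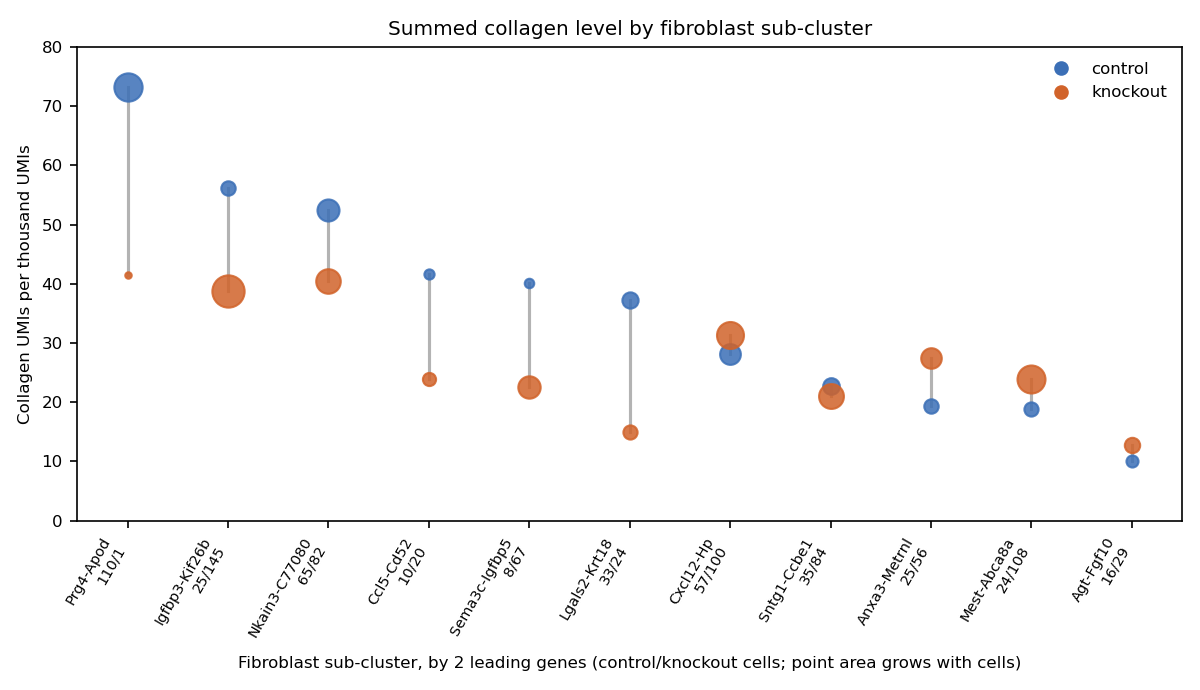
Summed collagen UMIs per 1000 UMIs in each of 11 fibroblast sub-clusters, named by 2 leading genes, with control and knockout cell numbers beneath. Point area grows with cell number. Control points are higher in the collagen-rich sub-clusters on the left. In 4 of the 5 sub-clusters on the right the knockout points are higher.

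The same split ran through the main genes. Col1a1 was lower in the knockout library in 6 of 9 sub-clusters (ratios 0.257 to 1.45) and Col3a1 in 4 of 9 (0.391 to 1.75). In the Igfbp3-Kif26b fibroblasts Col1a1 was at 14456 and 8621 CPM, and in the Nkain3-C77080 fibroblasts at 10863 and 8217 CPM. In fibroblasts led by Anxa3 and Metrnl it was higher in knockout, 2266 and 3295 CPM. The lowest Col1a1 ratio, 0.257, was in a sub-cluster that also held Lgals2 and Krt18 (33 and 24 cells), where tumour genes reached 559 CPM over both libraries; the part of tumour transcripts in it was not tested. Leaving out that sub-cluster and the sub-cluster with Ptprc gave a class ratio of 0.591 for the summed level. Col24a1 was lower in all 4 sub-clusters in which it could be read, and Col28a1 was higher in all 4 of its own.

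Single members marked particular fibroblasts. Col4a1 was highest in fibroblasts led by Mest and Abca8a, 969 CPM in 24 control cells and 1478 CPM in 108 knockout cells. Col28a1 in the same sub-cluster was read at 1 UMI in control (7.45 CPM) and 184 UMIs in knockout (201 CPM). Col12a1 was highest in the Igfbp3-Kif26b fibroblasts, at 1099 and 517 CPM, and Col11a1 was also highest there, at 135 and 87.1 CPM. Col14a1 was highest in fibroblasts led by Sema3c and Igfbp5, at 3068 CPM in 8 control cells and 2841 CPM in 67 knockout cells. Col15a1 was highest in the Mest-Abca8a and Nkain3-C77080 fibroblasts, at 499 and 454 CPM and at 492 and 439 CPM. The sub-clusters highest in Col1a1 and in Col4a1 were thus different ones.

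The Saa3-Lum stromal cells held nearly as many collagen UMIs per cell as fibroblast-like cells, a count not scaled for depth. They had 589 collagen UMIs per cell in control and 292 in knockout, against 601 and 287 in fibroblast-like cells. They summed to 30812 CPM in 191 control cells and 30905 CPM in 16 knockout cells. In control this was below the fibroblast-like sum given above. The 12 fibroblast markers summed to 12218 and 15274 CPM in them and the 12 mesothelial markers to 530 and 766 CPM. In control they had Col3a1 at 9287 CPM, Col1a2 at 7552 and Col1a1 at 7546. Col24a1 stood out at 774 CPM, against 53.9 CPM in control fibroblast-like cells, and 2827 of the control library's 3448 Col24a1 UMIs lay here. Col5a3 (477 CPM), Col4a5 (191 CPM) and Col4a6 (71.7 CPM) were also above their fibroblast-like levels of 273, 53.9 and 1.80 CPM. Of 24 members read, 2 were lower and 10 higher in the knockout cells, where 43.9% of genes passed the fold (11.5% lower, 32.4% higher). With 16 cells, 1 knockout cell held 43.9% of the Col1a1 UMIs and 66.7% of those of Col6a3.

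Mesothelial-like cells, of the serosal lining, carried type I, III and VI collagen with a different make-up from fibroblasts. The sum was 11962 CPM over 43 control cells and 9721 CPM over 30 knockout cells. Col3a1 was level, at 3964 and 3962 CPM, while Col1a2 was at 2581 and 1075 CPM (0.416, 0.367 to 0.471) and Col1a1 at 1282 and 437 CPM (0.341, 0.279 to 0.413). Col6a5 was at 744 and 1508 CPM (2.03) and Col18a1 at 53.9 and 172 CPM (3.19). Col24a1 had 78 control UMIs and 2 knockout UMIs. Of 18 members read, 7 were lower and 4 higher, in a class where 29.3% of genes passed the fold (16.3% lower, 13% higher). In control, 1 cell held 32.7% of the Col1a1 UMIs, and without the top cell of each library the Col1a1 ratio was 0.429. Of the 43 control cells, 15 formed a sub-cluster led by Pdzrn4 and Fxyd3, with Muc16, Upk1b and Msln, in which there was no knockout cell.

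Endothelial-like cells, 43 in control and 21 in knockout, had type IV, XV and XVIII basement membrane collagens. Of these cells, 3 and 4 formed a sub-cluster led by the lymphatic genes Ccl21a, Mmrn1 and Lyve1, with lower Col4a1 (1017 and 986 CPM). Over the whole class the 4 members read were all lower in the knockout library, where 29.1% of genes passed the fold and 15% did so downward. Their ratios were 0.584 (0.511 to 0.665) for Col4a1, 0.532 for Col4a2, 0.356 for Col15a1 and 0.605 for Col18a1, the source of endostatin. In the knockout library the 4 lymphatic cells held more UMIs than the other 17 cells of the class, so they weighed heavily on its CPM. Leaving out the lymphatic cells of both libraries was an alternative added after seeing the data. Most of the difference was then gone for Col4a1, Col4a2 and Col15a1, but not for Col18a1. Col4a1 was then at 3358 and 2902 CPM (0.864, 0.741 to 1.0), Col4a2 at 1701 and 1472 CPM (0.865, 0.695 to 1.07) and Col15a1 at 774 and 564 CPM (0.729, 0.508 to 1.02), all within the fold. Col18a1 had 78 and 7 UMIs left, a ratio of 0.338 (0.132 to 0.730), further from 1 than in the whole class. In control, 1 cell held 26.2% of the Col4a1 UMIs and 39.6% of the Col15a1 UMIs were in 1 cell.

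Pericyte/smooth muscle-like cells numbered 48 in control and 9 in knockout, and had the highest Col18a1 level of the classes, 1026 and 830 CPM. Of 13 members read, 4 were lower and none higher, where 27.3% of genes passed the fold (12.1% lower, 15.2% higher). These were Col1a1 (702 and 315 CPM, 0.449), Col1a2 (842 and 348 CPM, 0.414), Col3a1 (2378 and 1543 CPM, 0.649) and Col8a1. The last had 84 and 3 UMIs, and 53.6% of the control UMIs were in 1 cell. Col4a1 was at 2433 and 1709 CPM (0.702), within the fold.

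In epithelial/tumour-like cells collagen was a small share of transcripts, and the knockout library had less of it. The sum was 935 CPM over 9149 control cells and 736 CPM over 5779 knockout cells, a ratio of 0.787 (0.780 to 0.794). The 10th, 50th and 90th percentiles over cells were 296, 840 and 1785 CPM in control and 157, 647 and 1436 CPM in knockout. Of 29 members read, 8 were lower and 1 higher, where 11.7% of 15440 genes passed the fold (4.61% lower, 7.10% higher). The members' median log2 ratio was -0.22 beside -0.06 for all genes. The 8 were Col18a1, Col7a1, Col5a1, Col6a3, Col24a1, Col1a1, Col1a2 and Col3a1, of which the last 4 were not above the lymphoid level. These cells were sub-clustered together with the Dkk2-Ank tumour cluster described below, which the class values leave out. Of 19 sub-clusters with at least 10 cells in each library, 1 was host epithelium by its Y-linked transcripts (143 and 146 CPM). Another carried Ptprc, an immune gene. The other 17 include a Dkk2 sub-cluster of 380 control and 47 knockout cells. In all 17 the sum was lower in the knockout library, with ratios from 0.534 to 0.924 and a median of 0.870.

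Col18a1, a basement membrane multiplexin, had the largest difference among members that were abundant in tumour cells. Col18a1 (ENSMUSG00000001435, chr10:77052178-77166548) had 20514 and 8699 UMIs, 142 and 88.0 CPM, a ratio of 0.618 (0.603 to 0.634). With each cell thinned to 2000 UMIs, 21.4% of control and 13.8% of knockout tumour cells had a Col18a1 UMI (67.4% and 55.7% unthinned), against 2.87% and 0.804% of lymphoid cells. The class medians were 13209 and 14980 UMIs and the lymphoid medians 2879.5 and 3221.5. Col18a1 was lower in all 17 of these sub-clusters, with ratios from 0.286 (the Dkk2 sub-cluster) to 0.800. It passed the fold in 13 of 14 alternatives, the exception being UMIs per cell.

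The abundant type IV chains differed little in the same cells. Col4a1 had 13676 and 9151 UMIs, 94.9 and 92.6 CPM, a ratio of 0.976 (0.95 to 1.0), and was lower in 10 and higher in 7 of the 17 sub-clusters. Col4a2 was at 28.4 and 27.3 CPM (0.964) and Col4a5 at 39.4 and 35.5 CPM (0.901). Col4a4, a scarce type IV chain with 51 and 71 UMIs, was the 1 member higher past the fold. Its log2 ratio was 1.01, and -0.91 in thinned cells. The type VI chains were modestly lower, Col6a1 at 303 and 260 CPM (0.858) and Col6a2 at 150 and 115 CPM (0.766). Col27a1, a fibrillar chain, was at 63.7 and 43.7 CPM (0.687). Col7a1, the anchoring fibril collagen of squamous and mucosal epithelium, was at 10.1 and 6.49 CPM (0.642, 0.584 to 0.705) and passed the fold in 9 of 14 alternatives. Col8a1 was within the fold over the class (9.13 and 10.6 CPM) but was higher in the knockout library in 11 of the 13 in which it could be read, with a median ratio of 1.53. The Dkk2 sub-cluster, which had most Col8a1 in control, was 1 of the 2 exceptions. It overlaps the Dkk2-Ank cluster, which is left out of the class values and described below.

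**Figure D4:**
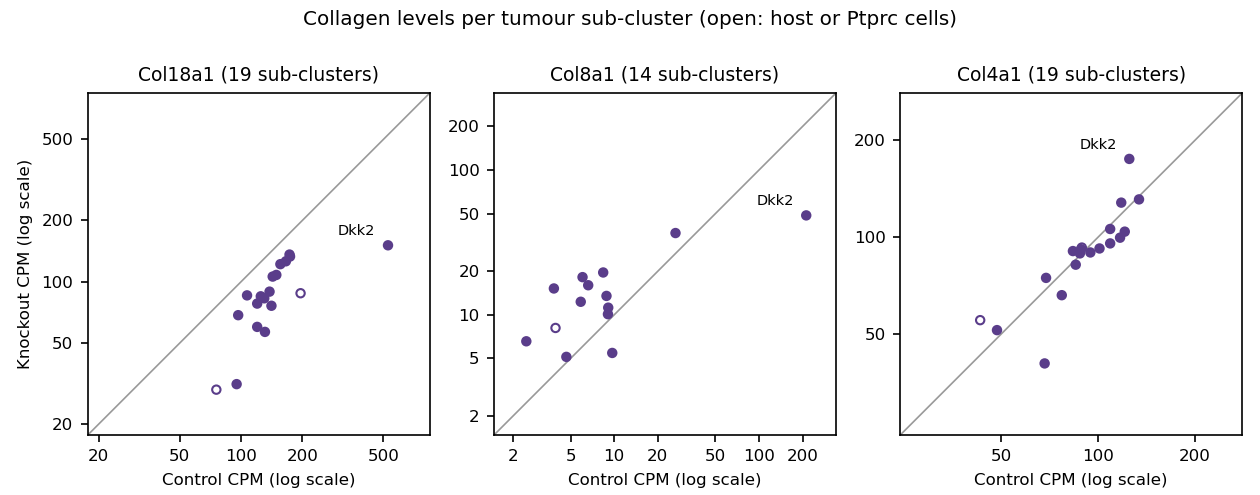
Knockout against control CPM (both log scales) of Col18a1, Col8a1 and Col4a1. Each point is a sub-cluster of the tumour-like and Dkk2-Ank cells. It has at least 10 cells in each library and at least 20 UMIs of the gene. The line marks equal levels. Open points are the host epithelial and Ptprc sub-clusters. All 17 filled Col18a1 points lie below the line, 11 of 13 filled Col8a1 points lie above it, and Col4a1 points lie on both sides. The Dkk2 sub-cluster is labelled.

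Fibrillar type I and III transcripts in tumour cells did not pass the limit set for free RNA. Col1a1 was at 10.3 and 3.62 CPM (ratio 0.350, 0.311 to 0.393), Col1a2 at 8.89 and 4.27 CPM (0.480) and Col3a1 at 22.7 and 11 CPM (0.483). None of these genes was above the lymphoid level. Col1a1 stood at 0.163 and 0.0619 UMIs per tumour cell against 0.0984 and 0.0393 per lymphoid cell. Col3a1 had 3279 and 1086 UMIs in 9149 and 5779 tumour cells, against 34 and 224 in 244 and 2340 lymphoid cells. Both genes were thus higher per tumour cell than per lymphoid cell, though not by enough to pass the rule. In thinned cells a Col1a1 UMI was found in 2.24% and 0.825% of tumour cells and in 5.17% and 1.61% of lymphoid cells. Unthinned, the shares were 11.7% and 5.36% of tumour cells and 9.43% and 3.46% of lymphoid cells. Thinning removes more from the deeper tumour cells (median 13209 and 14980 UMIs) than from lymphoid cells (2879.5 and 3221.5 UMIs). The order of the thinned shares therefore cannot decide whether these UMIs are free RNA. With the lymphoid level subtracted, the summed tumour ratio was 0.812.

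A tumour cluster led by Dkk2 and Ank had a collagen set unlike the other tumour cells. It stayed unnamed, with tumour genes at 2981 and 4863 CPM, Y-linked transcripts at 0.477 and 2.12 CPM and Pdgfra at 2.39 and 2.12 CPM. It held 307 control and 37 knockout cells, and its collagen sum was 2906 and 1579 CPM, a ratio of 0.544 (0.505 to 0.585). In control it had Col18a1 at 561 CPM, Col3a1 at 532, Col8a1 at 236, Col7a1 at 147, Col5a1 at 127 and Col6a3 at 121. Corresponding control levels in the other tumour cells were 142, 22.7, 9.13, 10.1, 12.6 and 6.42 CPM. In thinned control cells 41.0% had a Col3a1 UMI (71.7% unthinned, median 16811 UMIs) against 5.75% of lymphoid cells (12.7% unthinned).

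Of 17 members read in that cluster, 10 were lower in the knockout library and none higher, where 28% of 9336 genes passed the fold (13.9% lower, 14.1% higher). Col18a1 was at 561 and 174 CPM (0.310, 0.246 to 0.386), Col3a1 at 532 and 167 CPM (0.314, 0.248 to 0.393), Col8a1 at 236 and 63.5 CPM (0.269) and Col7a1 at 147 and 63.5 CPM (0.432). Col4a1 was at 143 and 203 CPM (1.42, 1.14 to 1.75), within the fold. In the knockout library 1 cell held 26.6% of the Col3a1 UMIs and 1 cell held 28% of those of Col18a1. Without the top cell of each library the ratios of Col3a1, Col18a1 and Col8a1 were 0.247, 0.25 and 0.233. Adding this cluster to the tumour class lowered the class ratio from 0.787 to 0.728.

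Chains that assemble into the same molecule kept ratios that depended on the cell class. The type I molecule takes more Col1a1 than Col1a2 chains. The Col1a1 to Col1a2 UMI ratio was 0.999 and 1.0 in Saa3-Lum cells, 0.956 and 0.819 in fibroblast-like cells, and 0.497 and 0.407 in mesothelial-like cells. In the Dkk2-Ank cluster of the control library it was 4.64 (3.72 to 5.82), from 459 and 99 UMIs. Of these, 1 cell held 31.8% of the Col1a1 UMIs and another 40.4% of the Col1a2 UMIs. The ratio was 3.44 (2.72 to 4.39) without the first, 7.32 without the second and 5.61 (4.15 to 7.71) without both. In thinned cells of that cluster a Col1a1 UMI was found in 4.92% and a Col1a2 UMI in 3.28%, below the 5.17% of lymphoid cells for each gene. Unthinned, the shares were 20.2% and 14.7%, against 9.43% and 9.84% of lymphoid cells. The 459 Col1a1 UMIs lay in 307 cells, against 24 in 244 lymphoid cells. The part of free RNA in the cluster's ratio was not tested. The UMI ratio in lymphoid cells was 0.960 (0.525 to 1.75) in control and 0.648 in knockout.

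**Figure D5:**
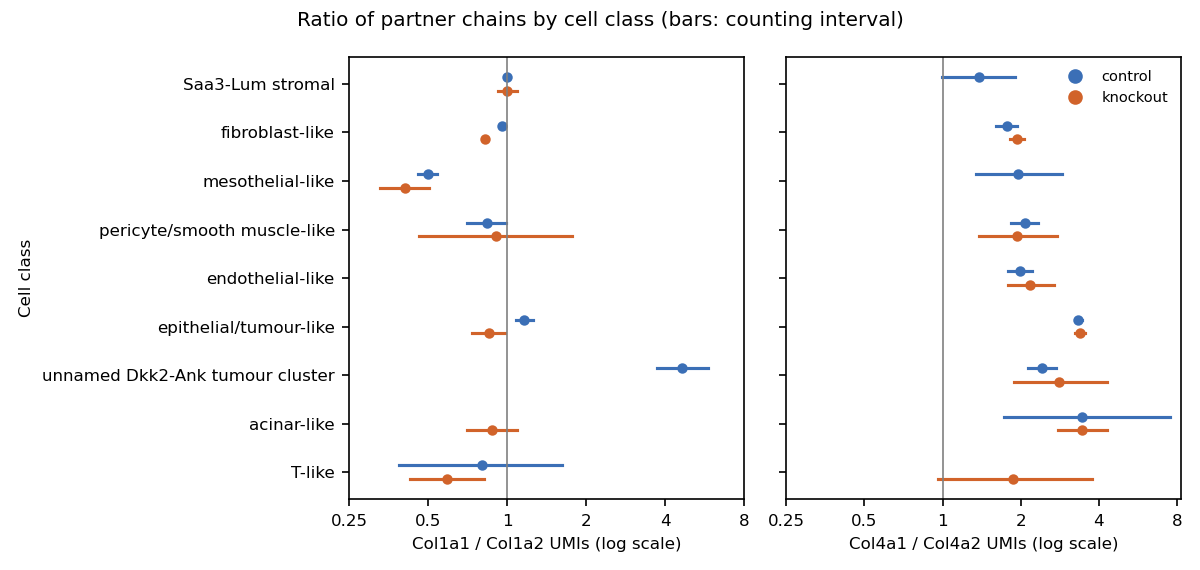
Ratio of Col1a1 to Col1a2 UMIs (left) and Col4a1 to Col4a2 UMIs (right) per cell class on a log scale, control in blue and knockout in orange, with 95% counting intervals, for pairs with at least 30 UMIs. The Dkk2-Ank point stands apart on the left at 4.64, and the tumour class at 3.34 and 3.39 lies above the stromal and vascular classes on the right.

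The type IV chain ratio was higher in the main tumour class than in stromal and vascular cells. The Col4a1 to Col4a2 ratio was 1.77 and 1.94 in fibroblast-like, 1.99 and 2.18 in endothelial-like and 2.07 and 1.94 in pericyte/smooth muscle-like cells. It was 3.34 (3.23 to 3.46) and 3.39 (3.24 to 3.54) in tumour cells, and 3.46 in the 288 acinar-like cells of the knockout library. The Dkk2-Ank cluster had 2.42 (2.14 to 2.73) and 2.82 (1.89 to 4.31). Its control value lay nearer to the vascular classes than to the other tumour cells. Its knockout interval covered the knockout values of the vascular classes and of the other tumour cells. Mesothelial-like cells were at 1.95 (1.34 to 2.89) and 1.15 (0.512 to 2.63), and control Saa3-Lum cells at 1.38. Those acinar-like cells had Y-linked transcripts at 9.58 CPM and tumour genes at 1191 CPM. The ratio of Col4a5 to Col4a6, a pair that shares a promoter region on the X chromosome, was 203 and 140 in tumour cells. These tumour values rested on 28 and 25 Col4a6 UMIs. The ratio was 1.53 and 1.77 in mesothelial-like cells and 2.66 in control Saa3-Lum cells. Col6a1 to Col6a2 was 1.34 and 1.52 in fibroblast-like, 2.02 and 2.27 in tumour and 2.18 and 3.32 in Dkk2-Ank cells. Col5a1 to Col5a2 was 0.618 and 0.529 in fibroblast-like cells, 10.9 and 7.29 in tumour cells and 33.3 (22.2 to 52.3) in control Dkk2-Ank cells. The tumour values rested on 167 and 98 Col5a2 UMIs and the Dkk2-Ank value on 24.

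Genes that serve collagen were read from lists chosen with earlier results of these data known. Over all genes read in fibroblast-like cells 5.34% were lower and 10.7% higher by the same fold, and the median log2 ratio was 0.06. In fibroblast-like cells, 2 of 20 folding, hydroxylation and export genes were lower and none higher (median log2 ratio -0.27). They were P3h4 (61.7 and 35.3 CPM, 0.572) and Creb3l1 (141 and 92.5 CPM, 0.654), a transcription factor of secretory load. Of 13 propeptide removal and cross-linking genes, 3 were lower and none higher (median -0.39). These were the propeptidases Adamts14 (15.6 and 6.83 CPM, 0.438) and Adamts3 (36.1 and 22 CPM, 0.610) and the lysyl oxidase Loxl2 (239 and 129 CPM, 0.540). Of 8 collagen receptors, Itga1 was higher (43.9 and 109 CPM, 2.48) and Cd44 lower (149 and 82.4 CPM, 0.554). The receptor kinase Ddr2 was at 256 and 362 CPM (1.41).

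Fibril-binding matrix genes were split. Of 20 read in fibroblast-like cells, 2 were lower and 5 higher (median -0.10). Tnc, the matricellular tenascin C, was at 150 and 26.6 CPM (0.177, 0.150 to 0.208) and Postn, periostin, at 1299 and 588 CPM (0.453). Comp was at 6.59 and 28.7 CPM (4.36) and Fmod, fibromodulin, at 23.4 and 72.5 CPM (3.1). Of 15 basement membrane partners, 3 were lower and 3 higher (median -0.12), with Lama1 at 29.6 and 72.1 CPM (2.44) and Nid2 at 24.8 and 43.1 CPM (1.74). These groups thus contained members past the fold in both directions, as the collagens did.

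In tumour cells the same lists had 1 to 3 members lower each, where 4.61% of all genes were lower and 7.10% higher, with a median log2 ratio of -0.06. Folding genes had 2 of 22 lower, with P4ha3 at 4.54 and 2.18 CPM (0.482) and Creb3l1 at 17.1 and 11.1 CPM (0.650). Cross-linking genes had 3 of 14 lower, the largest in level being Tgm2, a transglutaminase, at 123 and 68.1 CPM (0.553). Basement membrane partners had 3 of 15 lower, among them Lamb2 at 66.7 and 37.0 CPM (0.554), Lamb3 at 6.90 and 3.05 CPM (0.443) and Lama3 at 0.930 and 0.283 CPM (0.305). Receptors had 1 of 10 lower, Ddr2, at 1.12 and 0.445 CPM, while the epithelial receptor kinase Ddr1 was at 66.2 and 51.3 CPM (0.775). Fibril-binding genes had 3 of 16 lower and 1 higher. The lists' median log2 ratios ran from -0.35 (fibril-binding) to -0.08 (receptors).

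Other classes held few collagen UMIs. Monocyte/macrophage-like cells summed to 344 and 143 CPM, T-like cells to 179 and 99.3 CPM and NK-like cells to 440 and 187 CPM, all lower in the knockout library. Of 10 members read in monocyte/macrophage-like cells, 8 were lower, where 17.9% of genes passed the fold (11.7% lower, 6.13% higher). T-like cells had 5 of 5 lower, where 20.5% of genes passed (11.8% lower, 8.72% higher). Neutrophil-like cells had 3 of 4 lower (33.2%, of which 20.4% lower and 12.7% higher), and cDC1-like dendritic cells 1 of 1 (17.8%, of which 9.78% lower and 8.01% higher). The lymphoid cells thus shared the lower level that the myeloid cells had.

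Single cells weighed on several of the remaining classes. Plasma-like cells summed to 1165 CPM in control and 60.6 CPM in knockout, and 5 of 5 members read were lower, where 27.4% of genes passed (15.7% lower, 11.7% higher). In control, 1 plasma-like cell held 96.9% of the 295 Col1a1 UMIs. Acinar-like cells summed to 957 and 998 CPM. Of 11 members read there, Col18a1 was lower (147 and 85.9 CPM, 0.585) and 3 were higher, where 23.7% of genes passed (16.7% lower, 6.95% higher). The higher ones were Col1a1, Col1a2 and Col3a1, and 1 knockout cell held 61.5% of 156 Col1a1 UMIs. A further 44 control and 3 knockout cells carried stromal and tumour genes together and summed to 13875 and 2069 CPM. With 3 cells, 16 of 20 members were lower and 3 higher, where 53.5% of genes passed (24.9% lower, 28.6% higher).

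The 12 members with under 100 UMIs were nearly silent, in control and knockout kept cells respectively. The cartilage collagens were at 1 and 1 UMI (Col2a1), 1 and 0 (Col9a1), 2 and 4 (Col9a2) and 12 and 20 (Col10a1). Transmembrane Col13a1 had 60 and 18 UMIs, 33 of the control ones in endothelial-like cells. Col17a1, the hemidesmosome collagen, had 44 and 37, and Col25a1 had 22 and 15. Col4a3 had 30 and 35, Col6a4 5 and 38, Col19a1 14 and 5, Col22a1 4 and 3, and Col26a1 5 and 4. Among low members above that limit, Col9a3 had 159 and 141 UMIs and Col11a2 92 and 68, mostly from tumour cells at levels not above lymphoid cells. Col23a1 in knockout endothelial-like cells had 25 UMIs, 96.0% of them in 1 cell.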

How the data were processed

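Cells of 2 10x 3′ libraries were counted by the authors with Cell Ranger 3.1.3 on mm10, per the submitters' processing notes, whereas the deposited matrix header names version 8.0.0. The deposited values are raw UMI counts per gene and cell, not normalized. How the authors filtered barcodes and treated doublets is not given in the sources used here. Barcodes below 500 detected genes or above 15% mitochondrial UMIs were dropped here, as were Scrublet doublets (148 control, 341 knockout). Cells of both libraries were clustered together with Scanpy 1.11.5 (2000 variable genes without collagens, 30 components, 15 neighbours, Leiden resolution 1) and classes were named from marker lists. The Dkk2-Ank cluster stayed unnamed. The cluster led by Saa3 scored highest on the mesothelial list (0.888, fibroblast 0.722) and was divided by sub-clustering: sub-clusters with mesothelial as their best list are called mesothelial-like, and those with fibroblast or myofibroblast genes best and no tumour genes Saa3-Lum stromal. UMIs were summed per class and library and divided by the class total (CPM), with exact Poisson intervals, and exact conditional intervals for ratios, at 95% (SciPy 1.17.1). Log2 ratios used 1 added UMI. A member was read in a class with at least 50 UMIs over both libraries, and called past 1.5-fold. Sub-clusters were compared with at least 10 cells in each library and 20 UMIs of the gene. Shares of cells were compared after thinning to 2000 UMIs. Genes named beside the members are those that lead a cluster or mark a class, and up to 4 per list and class with the largest ratio among genes with at least 50 UMIs. The counting code was tested on simulated data. The members and lists were chosen with earlier results of these data known. Alternatives covered filters, doublets, clustering, scaling, background and sub-cluster weights; 1 library a group leaves no replicate to leave out.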

Additional observations from a re-analysis of the deposited data

Results flagged for a closer look

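Col4a4, a type IV chain of kidney and other specialised basement membranes, differed in opposite directions past 1.5-fold in the 2 main classes. It had 31 control and 20 knockout UMIs in fibroblast-like cells, a log2 ratio of -1.10, and 51 and 71 UMIs in epithelial/tumour-like cells, a log2 ratio of 1.01. Difference between the classes was not tested, since each genotype has 1 library. The fibroblast-like ratio changed sign under 2 alternatives and the tumour ratio under 1, as given in the next section.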

How the results depend on the processing

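No paired analysis was possible because each genotype has 1 library. The alternatives that left out sub-clusters or added other cells were chosen after seeing the data. The summed fibroblast-like ratio of 0.596 stayed below 1 throughout: it was 0.585 with doublets kept, 0.757 at Leiden resolution 0.5 (which merges Saa3-Lum cells into the class), 0.591 with collagens in the clustering, 0.636 as a mean of per-cell CPM, 0.477 as UMIs per cell, 0.571 scaled by the median gene and 0.642 in thinned cells. It was 0.851 with sub-clusters weighted alike, 0.591 without mixed sub-clusters, 0.762 without the Prg4-Apod sub-cluster and 0.708 with Saa3-Lum cells added. Its 13 members past the fold became 6 in thinned cells, 5 with sub-clusters weighted alike, 8 without Prg4-Apod cells and 6 at a 2-fold limit. The summed tumour ratio of 0.787 also stayed below 1, at 0.795 (doublets kept), 0.727 (collagens in the clustering), 0.769 (mean of cells), 0.855 (UMIs per cell), 0.819 (median gene), 0.812 (lymphoid level subtracted), 0.773 (thinned), 0.834 (weighted alike), 0.728 (Dkk2-Ank cells added) and 0.795 (host and Ptprc sub-clusters out). Its 9 members past the fold became 14 with the lymphoid level subtracted. The control share of collagen UMIs in fibroblast-like cells, 45.1%, was 43.8%, 69.8%, 45.9%, 50.2% and 65.8% with doublets kept, Leiden 0.5, the lymphoid level subtracted, thinning and Saa3-Lum cells added. The knockout share, 70.0%, was 69.7%, 72.6%, 71.0%, 77.2% and 71.6% under the same alternatives, 70.6% with the loose filter and 70.2% with collagens clustered.

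Single genes changed sign in 6 cases. In fibroblast-like cells the log2 ratio of Col20a1 was -0.12 in thinned cells, and that of Col4a4 was 0.09 at Leiden resolution 0.5 and 0.06 without Prg4-Apod cells. In tumour cells thinning gave 0.46 for Col24a1, -0.91 for Col4a4 and 0.02 for Col7a1. Except where the construction shows it, the cause was not tested. Depth limits members under 50 UMIs in a class and every value from the vascular and Saa3-Lum knockout cells.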
